A study of Mus musculus with 50 samples.

Results

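The dose by genotype interaction was measured in synaptosomes, the resealed nerve endings that separate when brain is homogenized, from the frontal cortex of 41 of the 50 mice in the series. The 41 mice were those of the 4 dosed groups, and each was hybridized to an Illumina MouseRef-8 v2.0 array of its own. The high dose was given to 10 knockouts and 10 wild types and the low dose to 10 knockouts and 11 wild types, with 9 untreated wild types beside them. Knockouts were Sod2 KO mice with a constitutive deletion, so that all cells of the body, and not only neurons, lacked the gene. The high dose was 30 mg/kg and the low dose 1 mg/kg of a compound that the sample titles name EUK8 and the treatment field names EUK189. All mice were on the CD1 background, an outbred stock, and were 17 to 21 days old. All 20 knockouts received the compound. The interaction therefore compares 2 doses in knockouts and says nothing of an untreated knockout.

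Sod2 encodes the manganese superoxide dismutase, which removes superoxide in the mitochondrial matrix. Salen manganese compounds of the EUK series are small synthetic mimetics of superoxide dismutase and catalase. Cells answer mitochondrial and oxidative stress partly through Nrf2, which switches on detoxification and glutathione genes at antioxidant response elements, and partly through ATF4, which switches on amino acid supply genes. A synaptosome holds mitochondria, synaptic vesicles and a piece of postsynaptic membrane, and preparations also carry myelin and fragments of glia.

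The interaction was the knockout minus wild-type difference at the high dose minus the same difference at the low dose, on log2 normalized intensity. A negative interaction in a gene that was higher in low-dose knockouts means that its difference was smaller, absent or turned at the high dose. The question it answers is which knockout differences depended on the dose. Group levels below are log2 normalized intensities, given as lowest, median and highest array. Values after ± are standard errors of fitted log2 differences.

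Array medians lay between 54.12 and 78.02 intensity units, and 10161 to 12329 of 25697 probes were above background on an array. At the high dose a mean of 11282 were above background in knockouts and 11557 in wild types, and at the low dose 11091 in knockouts and 11185 in wild types. Sod2 itself, checked first, was higher in low-dose knockouts (0.41 ± 0.10, adjusted p = 0.00119 in limma), with 0.24 ± 0.09 at the high dose (adjusted p = 0.27). Its level ran 9.68, 10.10 and 10.50 in high-dose knockouts against 9.40, 9.91 and 10.15 in high-dose wild types, and 9.65, 10.19 and 10.63 in low-dose knockouts against 9.50, 9.81 and 10.16 in low-dose wild types. Where its probe lies relative to the deleted sequence is not known from the labels or the files, and the probe checks nothing about the genotype labels. Of the nerve terminal markers, Syp, Syt1, Slc17a7, Vamp2 and Camk2a were above background on 50 of 50 arrays, while the Snap25 probe was above background on 4. The astrocyte marker Slc1a3 and the myelin marker Mbp were above background on all 50 arrays too, which shows RNA of other cell types in the preparations. In such bulk samples fewer cells or fragments of a type and less RNA in each cannot be told apart. The labels describe the samples as individual mice without naming litters, so p-values measure the spread between these mice.

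The knockout difference depended on the dose at 398 of 13440 tested probes (2.96%) at an adjusted p under 0.05 in limma, and 2148 probes had an unadjusted p under 0.05. With 1 probe per gene these were 310 of 10078 genes (3.08%), 98 of them above 0 (0.972%) and 212 below 0 (2.1%). The knockout difference alone was called for 69 genes at the high dose (0.685%), with 45 above 0 (0.447%) and 24 below 0 (0.238%). At the low dose it was called for 2214 genes (22%), with 1064 above 0 (10.6%) and 1150 below 0 (11.4%). The low dose called 58 of those 69 as well, and all 58 had the same direction. The low-dose count ranged from 1904 to 3004 probes over 19 other ways of processing, against 2809, while the interaction count ranged from 185 to 575. The direction of the called interactions moved more: under median scaling 7.21% of called probes lay above 0, against 28.9%, and 41.7% of those called at the high dose, against 65.4% (51 probes, 0.379% of those tested). Under cyclic loess 75.5% of those called at the high dose lay above 0.

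Of the 310 interaction genes, 306 were called for high against low dose within knockouts, a contrast that called 2133 genes in all (21.2%) and 1256 probes above 0 (9.35%). High against low dose within wild types called 0 probes (0%) in limma, with 524 at an unadjusted p under 0.05. Among the 310 genes, 12 had an unadjusted p under 0.05 for dose in wild types. These contrasts use the same arrays as the interaction and describe it rather than support it. For the genes sorted as fully reversed below, the median absolute dose difference was 0.555 in knockouts against 0.0653 in wild types. The plot of the dose difference in each genotype shows this gene by gene.

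**Figure D1:**
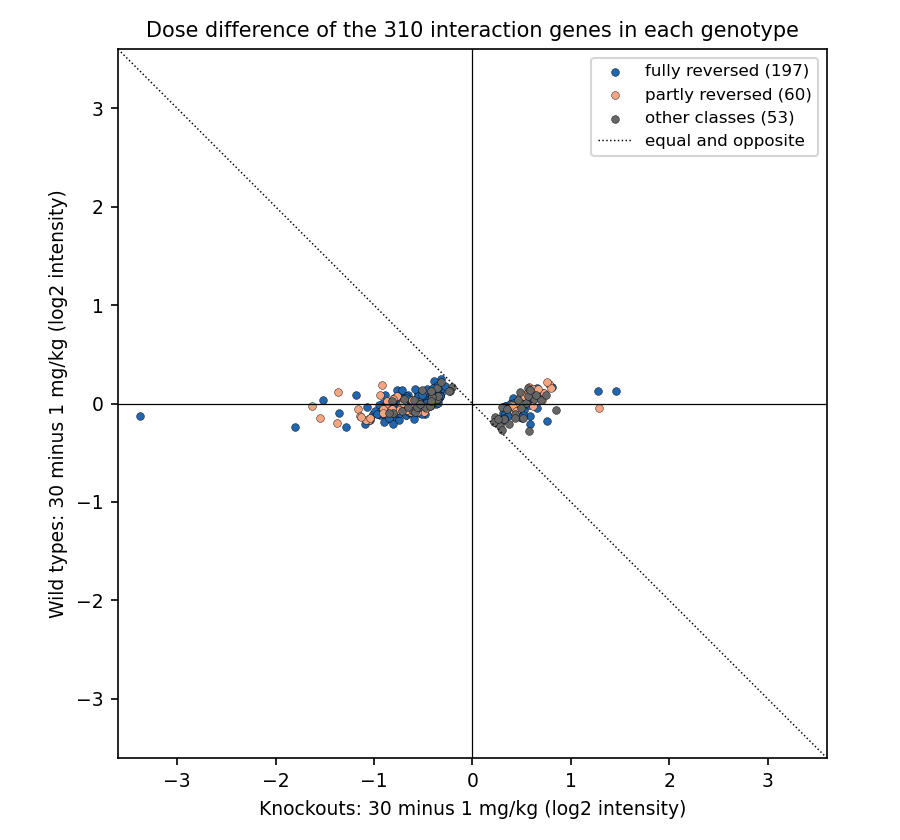
Dose difference (30 minus 1 mg/kg, log2 intensity) of the 310 interaction genes in knockouts on the horizontal axis and in wild types on the vertical axis, both linear and on the same scale. Each point is a gene, and the points spread along the horizontal axis, with Hmox1 at -3.38 in knockouts and -0.13 in wild types, and stay near 0 on the vertical axis.

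The genes called at the low dose were sorted by what was left at the high dose, with the remaining share being the high-dose difference as a percentage of the low-dose difference. A gene was fully reversed when the interaction was called against the low-dose direction and the 95% interval of the high-dose difference held 0 but not 50% of the low-dose difference. It was partly reversed when that interval excluded 0 on the low-dose side. It was dose-insensitive when it was called in 1 direction at both doses and the interaction had an unadjusted p of 0.05 or more. By this rule 197 genes were fully reversed (1.95% of tested genes), 60 partly reversed (0.595%) and 40 dose-insensitive (0.397%). A further 29 were reversed to an extent the interval left unresolved (0.288%), 9 had turned sign (0.0893%), and 15 had an interaction without a low-dose call (0.149%). No gene was called for a difference that was larger at the high dose in the low-dose direction. The other 1879 genes called at the low dose stayed unresolved. The remaining share of fully reversed genes ran up to 23.4%, so a small difference left at the high dose is compatible with that class.

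Over all 2214 genes called at the low dose, the median remaining share was 27.1% (quartiles 7.88% and 46.2%), and 82.2% kept the sign of the low-dose difference, against 57% of the genes not called there. Rises kept a median of 22.2% and falls 30.5%. The interaction was called for 204 of 1064 rises (19.2%) and for 91 of 1150 falls (7.91%). It was called for 42 of 64 genes with a low-dose difference over 1 (65.6%), for 162 of 553 between 0.5 and 1 (29.3%) and for 90 of 1378 between 0.25 and 0.5 (6.53%). Genes enter here by passing a threshold at the low dose, which favours low-dose estimates above their true size, and how far that lowers the remaining share was not tested. Just inside the threshold of the interaction lay Fibp (0.50, adjusted p = 0.0492), Pdha1 (-0.50, adjusted p = 0.0492) and Seh1l (-0.45, adjusted p = 0.0494), and just outside it Tesc (0.51, adjusted p = 0.0501), Pdlim2 (0.71, adjusted p = 0.051) and Otud7a (0.51, adjusted p = 0.0515).

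**Figure D2:**
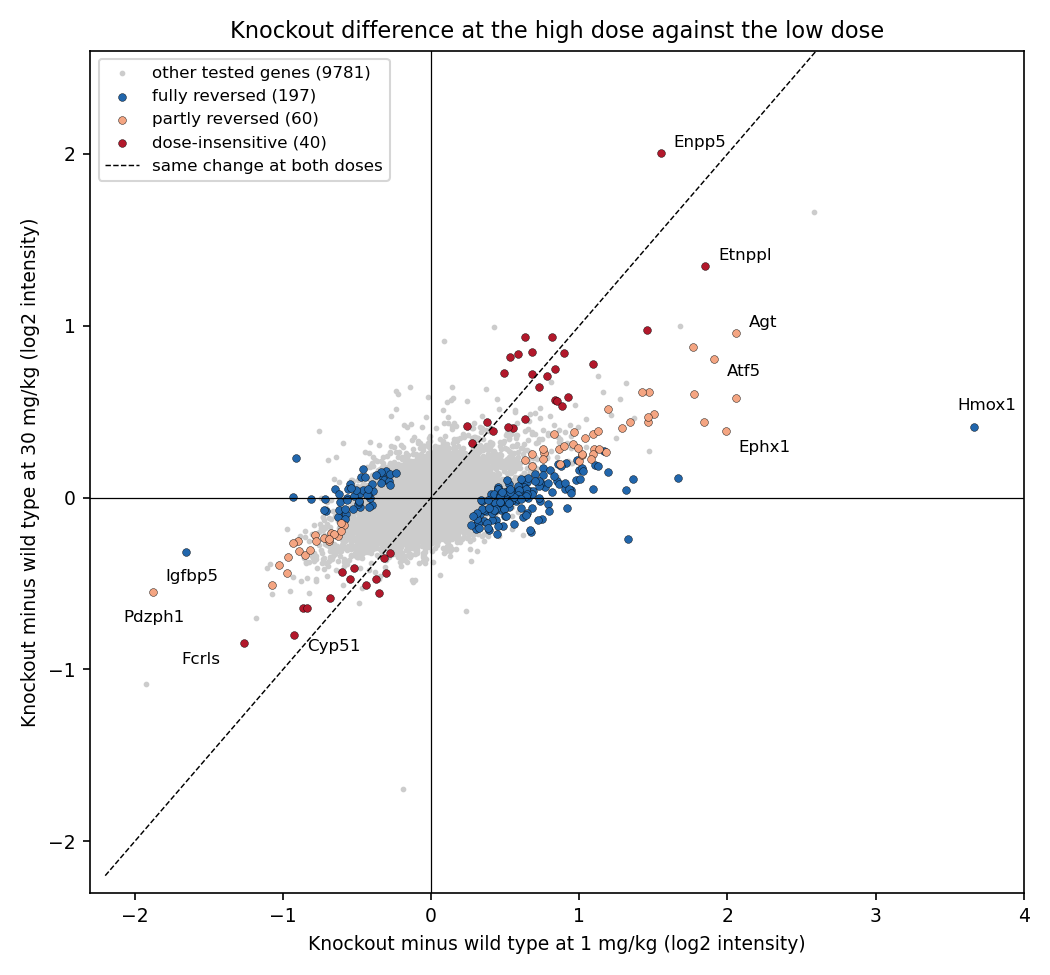
Knockout minus wild-type difference of each tested gene at 1 mg/kg (horizontal axis) and at 30 mg/kg (vertical axis), in log2 intensity, with the 3 classes coloured and the dashed line marking the same difference at both doses. The 197 fully reversed genes lie along the horizontal axis because the rule placed them there, the 60 partly reversed genes between that axis and the line, and the 40 dose-insensitive genes near the line.

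Averaged over the fully reversed genes and turned in the low-dose direction, the shift of an array from the low-dose wild types ran -0.11, 0.00 and 0.05 in high-dose knockouts, against -0.06, 0.01 and 0.10 in high-dose wild types. It ran 0.41, 0.63 and 0.80 in low-dose knockouts, against -0.11, -0.03 and 0.17 in low-dose wild types. Each low-dose knockout lay above each other array for these genes, which the choice of genes helps to fix. The partly reversed genes shifted by 0.05, 0.31 and 0.69 in high-dose knockouts, against -0.11, -0.03 and 0.03 in high-dose wild types. These groups did not overlap, which the class rule helps to fix, since it asks for a high-dose difference on the side of the low-dose one, as does that of the dose-insensitive class. For the dose-insensitive genes the shift was 0.30, 0.54 and 1.15 in high-dose knockouts and 0.49, 0.65 and 1.08 in low-dose knockouts, and high-dose knockout replicate 1 held the 1.15. Without that array 26 probes were called at the high dose, against 78, and 14 of the 40 dose-insensitive genes kept their class, against 176 of the 197 fully reversed and 43 of the 60 partly reversed genes. On each of the 6 chips that hold all 4 dosed groups, between 91% and 99% of the 310 genes had the sign of the fit, though the same arrays chose them.

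**Figure D3:**
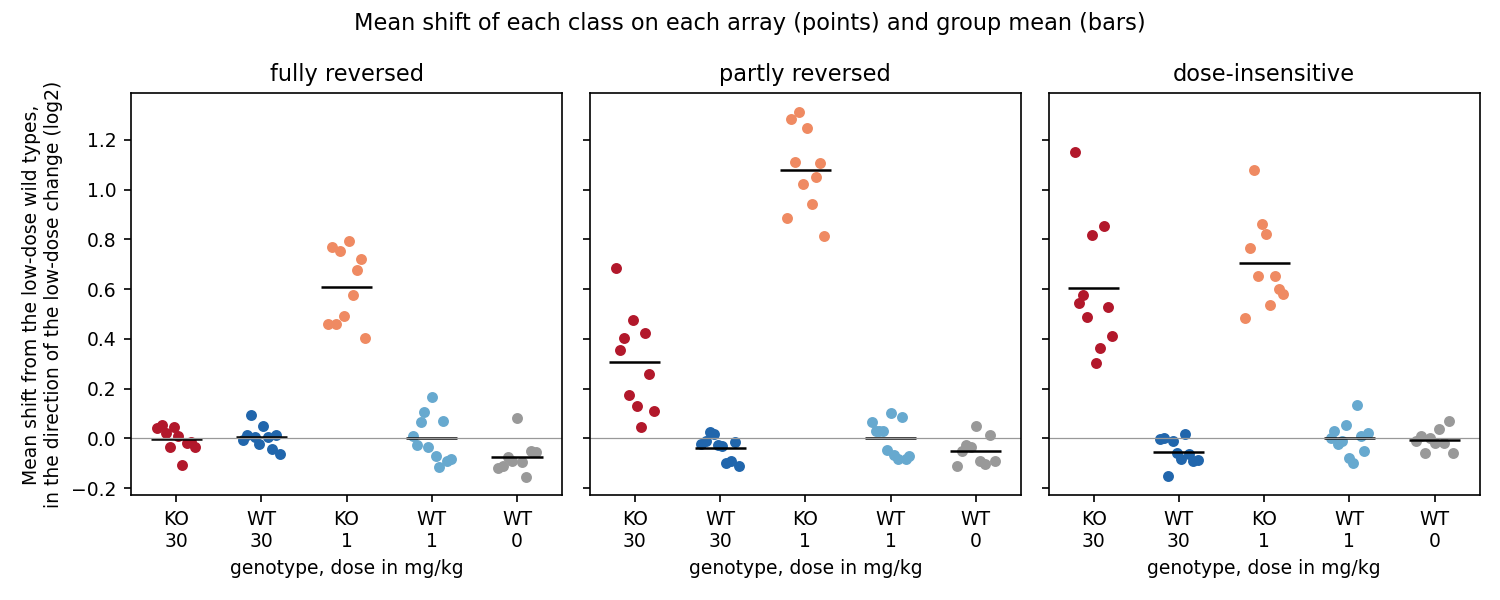
Mean shift of each array from the low-dose wild types over the genes of a class, in the direction of the low-dose knockout difference (log2 intensity), with 1 point per array and a bar at the group mean. Groups run from high-dose knockouts (KO 30) to untreated wild types (WT 0); the high-dose knockouts average -0.003 for fully reversed, 0.307 for partly reversed and 0.604 for dose-insensitive genes.

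Among the fully reversed genes, 145 had risen and 52 had fallen in low-dose knockouts. Hmox1 encodes heme oxygenase, a classic Nrf2 target that breaks down heme. Its level ran 4.59, 4.87 and 5.63 in high-dose knockouts against 4.21, 4.56 and 5.29 in high-dose wild types, with 1 of 10 arrays above background in each. It ran 6.39, 7.99 and 10.39 in low-dose knockouts, all 10 above background, against 4.40, 4.78 and 5.08 in low-dose wild types, none of 11 above background. The low-dose groups did not overlap, and the low-dose knockouts were at least 8.39-fold higher, a bound because the wild types did not rise above background. The fitted high-dose difference was 0.41 ± 0.25 (adjusted p = 0.555), the low-dose difference 3.67 ± 0.25 (adjusted p = 2.41e-15), and the interaction -3.25 ± 0.35 (adjusted p = 2.29e-08). The probe passed the filter of at least 9 arrays above background only through the low-dose knockouts, so its p-values carry that choice. Under the stricter filter on dim probes it was not tested.

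Hspa9, the mitochondrial Hsp70 that pulls imported proteins into the matrix, ran 9.78, 10.12 and 10.32 in high-dose knockouts against 9.80, 9.94 and 10.12 in high-dose wild types. It ran 10.82, 11.07 and 11.63 in low-dose knockouts against 9.74, 9.94 and 10.22 in low-dose wild types. All 10 low-dose knockouts lay above all low-dose wild types, and the interaction was -1.04 ± 0.12 (adjusted p = 1.11e-07). The high-dose groups overlapped, with 5 of 10 knockouts above the highest wild type. Mgst1, a microsomal glutathione transferase, ran 5.68, 6.79 and 7.33 in high-dose knockouts against 6.16, 6.40 and 7.22 in high-dose wild types. It ran 6.95, 7.64 and 8.63 in low-dose knockouts against 5.76, 6.51 and 7.13 in low-dose wild types, with 9 of the 10 knockouts above the highest wild type (interaction -1.27 ± 0.27, adjusted p = 0.00313). Igfbp2, which binds insulin-like growth factors, had a difference of -0.24 ± 0.17 at the high dose and 1.33 ± 0.17 at the low dose (interaction -1.57 ± 0.23, adjusted p = 3.79e-05). Its 10 high-dose knockouts spanned 6.37 to 7.32, against 7.57 to 9.53 in the low-dose knockouts, so the doses separated within the genotype.

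Nat8, an N-acetyltransferase of the endoplasmic reticulum, Gjb2, a gap junction connexin, and Epdr1, a lysosomal lipid-binding protein, complete the fully reversed rises that the naming rule picked. In that order their high-dose differences were 0.11 ± 0.13, 0.27 ± 0.14 and 0.19 ± 0.11, against low-dose differences of 1.36 ± 0.14, 1.17 ± 0.15 and 1.13 ± 0.11. All 10 low-dose knockouts lay above the low-dose wild types for each of these genes. At the high dose 3, 7 and 6 of 10 knockouts lay above the highest wild type, in the same order. Nat8 has near-identical relatives, so its probe may read more than 1 gene. Leaving out chip 3, 4 or 5 ended the Gjb2 call, with an adjusted p of up to 0.0852.

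Among the fully reversed falls, Igfbp5, another binding protein of insulin-like growth factors, ran 9.74, 10.10 and 10.52 in high-dose knockouts against 9.90, 10.38 and 10.78 in high-dose wild types. It ran 7.77, 8.32 and 10.55 in low-dose knockouts against 9.83, 10.30 and 10.81 in low-dose wild types. Of the low-dose knockouts 9 lay below every low-dose wild type and 1 lay among them, and the interaction was 1.34 ± 0.26 (adjusted p = 0.00134). Lgi4, a secreted protein needed for myelination of peripheral nerve, had differences of 0.00 ± 0.12 at the high dose and -0.93 ± 0.12 at the low dose (interaction 0.94 ± 0.17, adjusted p = 0.00071). Its 10 low-dose knockouts, at 5.81, 6.62 and 6.88, all lay below the low-dose wild types, at 7.03, 7.44 and 7.76. Opalin, a membrane protein of oligodendrocytes, had differences of 0.23 ± 0.20 at the high dose and -0.91 ± 0.20 at the low dose (interaction 1.14 ± 0.28, adjusted p = 0.0148). It was the only 1 of 16 tested oligodendrocyte and myelin markers called for the interaction.

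The other named falls were Ift27, a small GTPase of intraflagellar transport, Trim37, a ubiquitin ligase, Sfrp1, a secreted inhibitor of Wnt signals, and Abcc5, an export pump for organic anions. Their high-dose differences lay between -0.08 and -0.01 and their low-dose differences between -0.81 and -0.62. Ift27 and Abcc5 had all 10 low-dose knockouts below the low-dose wild types, and Trim37 and Sfrp1 had 7 of 10. Sfrp1 passed the interaction threshold in 12 of 19 other ways of processing and Trim37 in 16 of 19.

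Of the 60 partly reversed genes, 39 had risen and 21 had fallen, and their median remaining share was 32.6%. The median absolute difference was 0.295 at the high dose and 0.984 at the low dose. At the high dose 10 of the 60 were themselves called. Ephx1, the microsomal epoxide hydrolase and an Nrf2 target, ran 6.51, 6.89 and 7.62 in high-dose knockouts against 6.45, 6.59 and 6.84 in high-dose wild types. It ran 8.13, 8.70 and 9.05 in low-dose knockouts against 6.23, 6.62 and 7.22 in low-dose wild types. The high-dose groups overlapped, with 5 of 10 knockouts above the highest wild type, while the low-dose groups were apart (interaction -1.60 ± 0.17, adjusted p = 2.29e-08).

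Agt, angiotensinogen, which astrocytes secrete in brain, ran 6.94, 7.23 and 8.21 in high-dose knockouts against 6.01, 6.38 and 6.70 in high-dose wild types. It ran 7.88, 8.52 and 9.25 in low-dose knockouts against 5.91, 6.39 and 7.01 in low-dose wild types. Neither pair of groups overlapped, so the difference was smaller at the high dose (0.96 ± 0.14, adjusted p = 8.11e-05) than at the low dose (2.06 ± 0.14, adjusted p = 3.42e-15) but present at both. Atf5, a transcription factor of the mitochondrial unfolded protein response, had differences of 0.81 ± 0.20 (adjusted p = 0.0454) at the high dose and 1.91 ± 0.20 (adjusted p = 8.71e-10) at the low dose. Its interaction of -1.11 ± 0.28 had an adjusted p of 0.0198, which rose to as much as 0.112 without chip 1, 5 or 7.

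Cdo1, the dioxygenase that starts cysteine breakdown, had differences of 0.44 ± 0.15 at the high dose and 1.84 ± 0.15 at the low dose. The interaction was -1.40 ± 0.21 (adjusted p = 3.79e-05). A pair of genes chosen after their values were seen were also partly reversed: Mat2a, which makes S-adenosylmethionine, with 0.60 ± 0.16 at the high dose and 1.78 ± 0.16 at the low dose, and Rbm3, a cold-induced RNA-binding protein, with 0.88 ± 0.16 at the high dose and 1.77 ± 0.16 at the low dose. Both groups of Rbm3 were apart at each dose, and its interaction passed in 17 of 19 other ways of processing.

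Of 20 tested Nrf2 targets 11 had risen at the low dose, none was called at the high dose and 7 were called for a negative interaction: Hmox1, Ephx1, Gclm, G6pdx, Cbr3, Gstm1 and Tkt. Their median difference was 0.07 at the high dose and 0.26 at the low dose, beside -0.004 and -0.012 over all tested genes. Of all tested genes 10.6% rose at the low dose and 2.1% had a negative interaction call. Only 0.685% were called at the high dose, so the lack of such calls does not set these 20 apart. Gclm, the regulatory subunit of the enzyme that limits glutathione synthesis, ran 6.49, 6.99 and 7.31 in high-dose knockouts against 6.40, 6.71 and 6.92 in high-dose wild types. It ran 7.62, 8.04 and 8.40 in low-dose knockouts against 6.56, 6.88 and 7.02 in low-dose wild types (interaction -0.92 ± 0.14, adjusted p = 6.19e-05), with 6 of 10 high-dose knockouts above all high-dose wild types. G6pdx, the NADPH-supplying first enzyme of the pentose phosphate pathway, was chosen after its values were seen. Its differences were 0.25 ± 0.10 at the high dose and 1.02 ± 0.10 at the low dose (interaction -0.77 ± 0.15, adjusted p = 0.00104). Gstm1, a glutathione transferase, was also chosen after its values were seen and had 0.61 ± 0.16 at the high dose and 1.47 ± 0.16 at the low dose, with close relatives that its probe may also read.

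The promoters of Gclm, G6pdx and Mgst1 are shown because each held a match to the core of the antioxidant response element in the 250 bases before the gene start. The search used TGACNNNGC on both strands, and capitals mark the match. The sequences are those of RefSeq on GRCm38.p6, written 5′ to 3′ on the gene's strand, at chr3:122245307-122245556 on the plus strand for Gclm, chrX:74428881-74429130 on the minus strand for G6pdx and chr6:138140277-138140526 on the plus strand for Mgst1.
Gclm: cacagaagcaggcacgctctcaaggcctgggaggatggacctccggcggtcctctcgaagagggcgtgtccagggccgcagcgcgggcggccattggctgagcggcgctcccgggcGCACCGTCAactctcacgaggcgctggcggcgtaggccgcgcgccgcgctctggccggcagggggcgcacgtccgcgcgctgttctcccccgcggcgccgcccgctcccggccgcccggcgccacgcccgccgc
G6pdx: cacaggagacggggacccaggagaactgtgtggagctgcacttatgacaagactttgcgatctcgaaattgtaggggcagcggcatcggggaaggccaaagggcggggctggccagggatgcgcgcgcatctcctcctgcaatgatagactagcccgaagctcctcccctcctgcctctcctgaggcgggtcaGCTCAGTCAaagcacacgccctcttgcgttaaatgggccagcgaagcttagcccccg
Mgst1: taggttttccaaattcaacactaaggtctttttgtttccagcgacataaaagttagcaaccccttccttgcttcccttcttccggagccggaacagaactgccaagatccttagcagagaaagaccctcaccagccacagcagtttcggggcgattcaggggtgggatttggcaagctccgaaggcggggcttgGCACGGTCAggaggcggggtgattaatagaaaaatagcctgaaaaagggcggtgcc
The matches began 134, 57 and 56 bases before the start, read on the minus strand of each gene. In the window from 250 bases before to 50 bases after the start, 1303 of 7776 tested genes with a promoter sequence held this match (16.8%). Of the rises it was present in 8 of 27 partly reversed (29.6%), 25 of 119 fully reversed (21.0%) and 4 of 20 dose-insensitive genes (20%). Of the falls it was present in 4 of 15 partly reversed (26.7%), 7 of 40 fully reversed (17.5%) and 0 of 12 dose-insensitive genes. Of the Nrf2 target list, 7 of 16 promoters held it (43.8%), and Hmox1 and Ephx1 were not among them in this window.

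Among the partly reversed falls, Pdzph1, a PDZ domain gene, ran 6.63, 6.97 and 7.47 in high-dose knockouts against 6.98, 7.59 and 7.72 in high-dose wild types. It ran 5.05, 5.61 and 6.99 in low-dose knockouts against 7.22, 7.67 and 8.10 in low-dose wild types. The low-dose groups were apart and 5 of 10 high-dose knockouts lay below the lowest high-dose wild type (interaction 1.33 ± 0.22, adjusted p = 0.000146). Lypd1, which damps nicotinic acetylcholine receptors, had -0.51 ± 0.09 (adjusted p = 0.00205) at the high dose and -1.08 ± 0.09 at the low dose. Hr, a thyroid hormone-regulated corepressor, had -0.39 ± 0.10 (adjusted p = 0.0406) at the high dose and -1.03 ± 0.10 at the low dose, and Adarb1, an RNA-editing deaminase of glutamate receptor transcripts, -0.35 ± 0.08 (adjusted p = 0.0242) at the high dose and -0.96 ± 0.08 at the low dose. Plch2, a phospholipase C, had -0.44 ± 0.10 at the high dose and -0.98 ± 0.10 at the low dose, but its interaction (0.54 ± 0.14, adjusted p = 0.0259) passed in 10 of 19 other ways of processing. Srf, the serum response factor, was chosen after its values were seen and had -0.26 ± 0.12 at the high dose and -0.93 ± 0.12 at the low dose (interaction 0.67 ± 0.17, adjusted p = 0.0222). For Srf the highest adjusted p over the other ways of processing was 0.144.

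**Figure D4:**
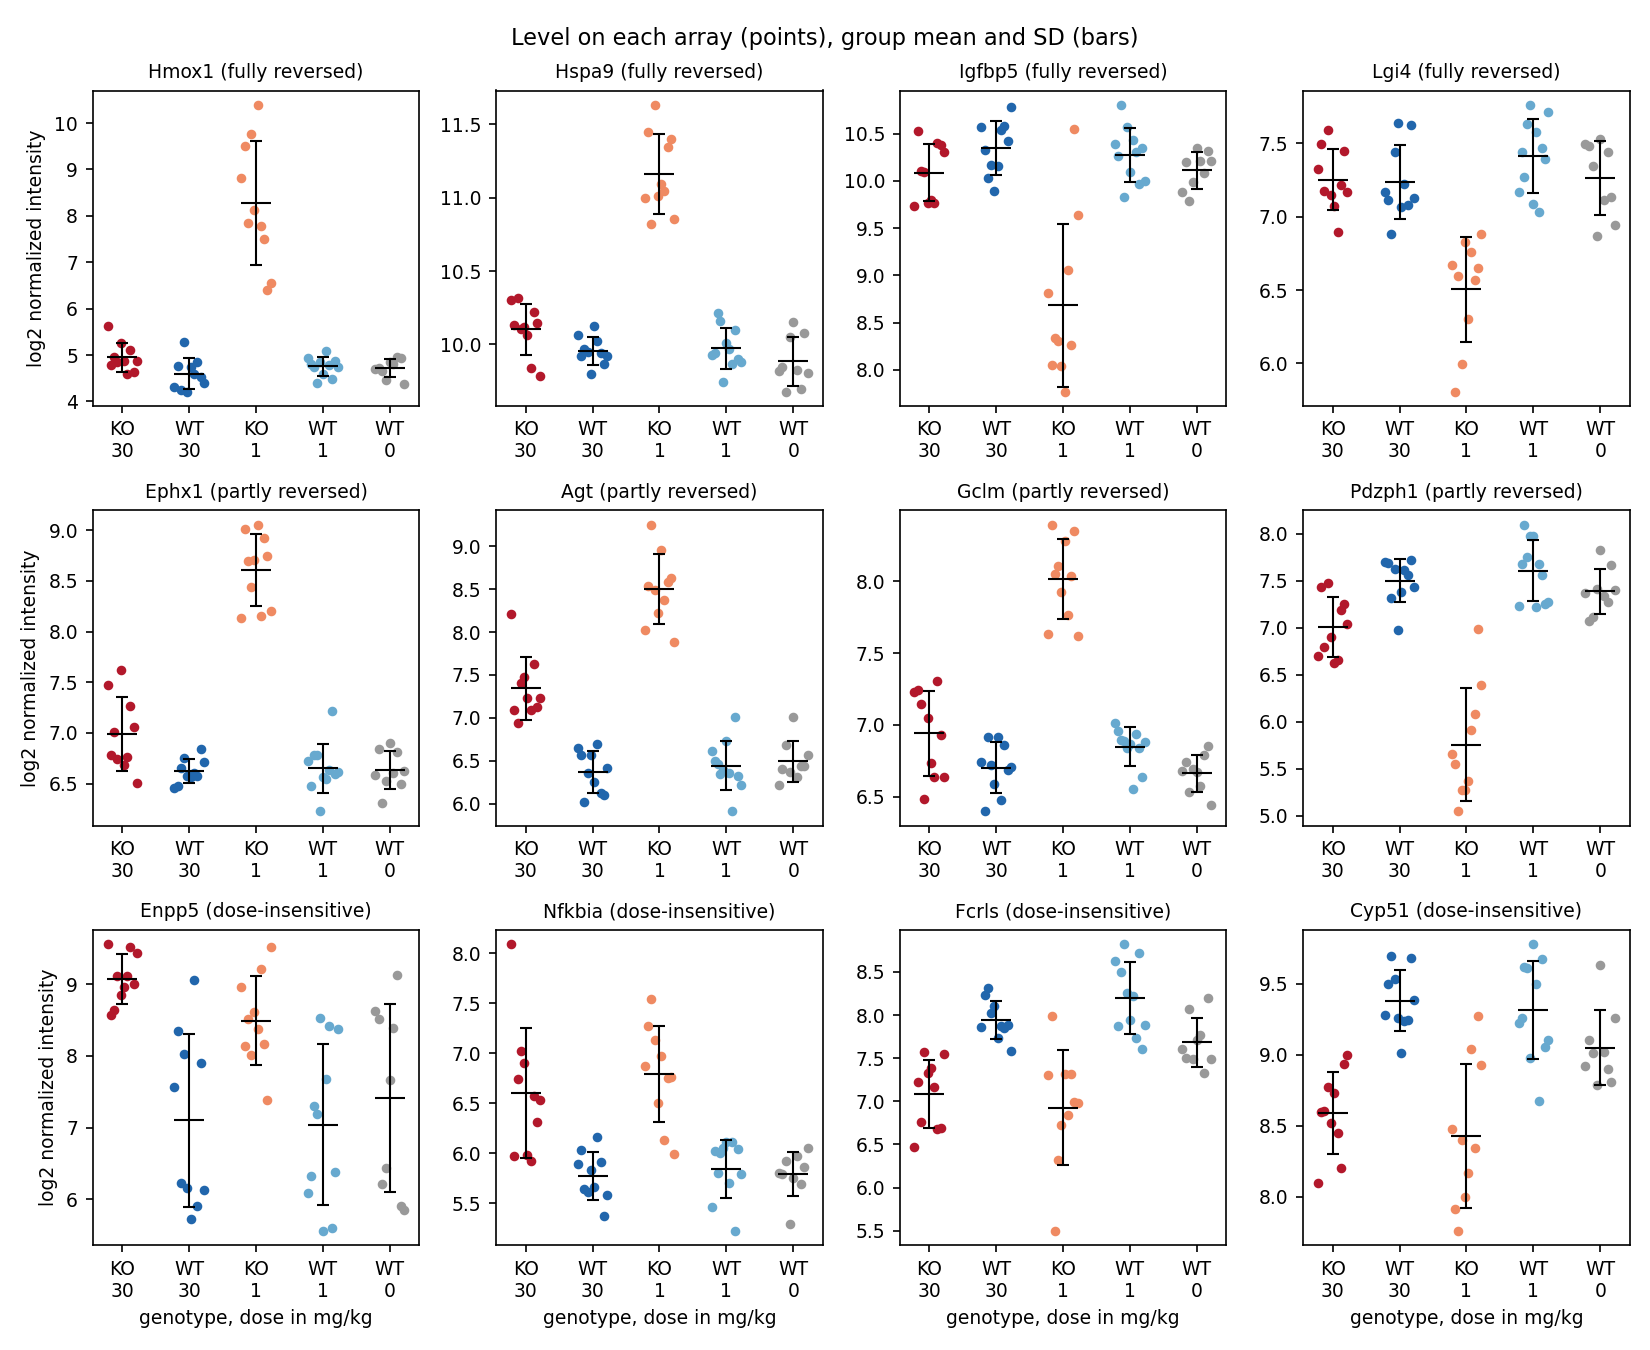
Level of 4 fully reversed (top row), 4 partly reversed (middle) and 4 dose-insensitive genes (bottom) on each of the 50 arrays, in log2 normalized intensity, with group mean and SD; each panel has its own axis. In the top row the low-dose knockouts (KO 1) stand apart from the low-dose wild types (WT 1), save 1 array for Igfbp5. In the middle row the mean of the high-dose knockouts (KO 30) lies between that of the low-dose knockouts and those of the wild types. In the bottom row both knockout means lie off the wild types', with overlap and with Enpp5 wild types from 5.56 to 9.13.

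The 40 dose-insensitive genes had a median absolute difference of 0.585 at the high dose and 0.657 at the low dose, 26 upward and 14 downward, with a median remaining share of 89.6%. Their name says that an interaction was not detected, and not that dose made no difference in knockouts. High against low dose within knockouts was called for 6 of the 40, among them Angptl4, Nudt7 and H3c6, beside 21.2% of all tested genes. For 0 of the 40 did the 95% interval of the interaction stay within 50% of the low-dose difference, so a moderate change with dose is compatible with each. The count of the class ran from 10 to 30 when 1 of chips 1, 3, 4, 5, 6 and 7 was left out at a time. Cirbp, Cyp4f16, Rhou and Tlcd4 were in the class in all 19 other ways of processing, and 24 of the 40 in at least 10.

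Etnppl, which degrades phosphoethanolamine and is made by astrocytes, ran 5.46, 6.67 and 7.79 in high-dose knockouts against 4.67, 5.17 and 5.46 in high-dose wild types. It ran 5.29, 6.69 and 8.10 in low-dose knockouts against 4.57, 5.01 and 5.56 in low-dose wild types. In each genotype the doses gave nearly the same range, with differences of 1.34 ± 0.28 (adjusted p = 0.00831) at the high dose and 1.85 ± 0.28 (adjusted p = 2.01e-06) at the low dose, and 4 wild-type arrays of each dose above background. Angptl4, a secreted lipoprotein lipase inhibitor, had 0.78 ± 0.19 (adjusted p = 0.0433) at the high dose and 1.10 ± 0.19 at the low dose, and Nudt7, a peroxisomal coenzyme A hydrolase, 0.59 ± 0.12 (adjusted p = 0.0127) at the high dose and 0.93 ± 0.13 at the low dose. Without high-dose knockout replicate 1, Angptl4 and Nudt7 left the class and Etnppl stayed in it.

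Enpp5, an ectonucleotide pyrophosphatase of the cell membrane, ran 8.57, 9.06 and 9.56 in high-dose knockouts against 5.72, 6.89 and 9.07 in high-dose wild types. It ran 7.39, 8.44 and 9.52 in low-dose knockouts against 5.56, 7.19 and 8.53 in low-dose wild types. The wild types fell into 2 ranges with a gap between 6.43 and 7.19: 14 of 30 lay below it, 5 of them at the high dose, 5 at the low dose and 4 untreated. All 20 knockouts lay above the gap. The fitted differences were 2.01 ± 0.43 at the high dose (adjusted p = 0.0141) and 1.55 ± 0.44 at the low dose (adjusted p = 0.00787). Enpp5 lies on chromosome 17, as does Sod2. Of the 40 dose-insensitive genes 7 were on that chromosome (17.5%), namely Rsph3a, Dcpp1, Rpl3l, Fkbp5, Cyp4f16, Angptl4 and Enpp5, beside 476 of 10078 tested genes (4.72%), 4.06% of the fully reversed and 6.67% of the partly reversed genes. Of the partly reversed falls 4 of 21 (19%) were on chromosome 17, and of the partly reversed rises 0 of 39. Rsph3a was the nearest of the 7 to Sod2, 14 tested genes away in chromosome order, and Enpp5 the farthest, at 273. Without high-dose knockout replicate 1, Rsph3a, Rpl3l and Angptl4 left the class. The part of alleles carried along with the Sod2 locus in these differences was not tested.

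Of the dose-insensitive falls, Fcrls, a microglial Fc receptor-like gene, ran 6.48, 7.19 and 7.57 in high-dose knockouts against 7.58, 7.88 and 8.32 in high-dose wild types. It ran 5.50, 6.99 and 7.99 in low-dose knockouts against 7.61, 8.22 and 8.82 in low-dose wild types. All 10 high-dose knockouts lay below the high-dose wild types. Cyp51, the sterol demethylase of cholesterol synthesis, ran 8.10, 8.60 and 9.00 in high-dose knockouts against 9.01, 9.33 and 9.70 in high-dose wild types, again without overlap. Its differences were -0.80 ± 0.14 (adjusted p = 0.0017) at the high dose and -0.92 ± 0.15 (adjusted p = 4.38e-06) at the low dose, with an interaction of 0.13 ± 0.20. H3c6, a replication-dependent histone with near-identical copies, Tlcd4 and Cyp4f16, a cytochrome P450 with close relatives, had high-dose differences of -0.64 ± 0.10, -0.64 ± 0.12 and -0.58 ± 0.10 and low-dose differences of -0.87 ± 0.10, -0.84 ± 0.12 and -0.68 ± 0.10, in that order. Cyp4f16 was above background on 2 of 10 high-dose and 3 of 10 low-dose knockouts, so its fold is uncertain. Without high-dose knockout replicate 1, Fcrls and H3c6 left the class, and Cyp51, Tlcd4 and Cyp4f16 stayed in it.

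Of 15 tested glucocorticoid-responsive genes 5 were called at the high dose, all upward, beside 8 rises at the low dose and no interaction call. Over all tested genes 0.447% rose at the high dose and 10.6% at the low dose. With 3.08% of all tested genes called for the interaction, 0 of 15 does not set the list apart. Their median difference was 0.40 at the high dose and 0.49 at the low dose. Fkbp5, a co-chaperone of the glucocorticoid receptor, Nfkbia, the inhibitor of NF-kB, Tsc22d3, known as GILZ, and Sult1a1, a sulfotransferase, were the 4 in the dose-insensitive class and were chosen after their values were seen. Fkbp5 ran 5.58, 6.35 and 7.97 in high-dose knockouts against 5.12, 5.59 and 5.75 in high-dose wild types, and 5.89, 6.38 and 7.37 in low-dose knockouts against 5.35, 5.67 and 6.49 in low-dose wild types. Of the high-dose knockouts 9 of 10, and of the low-dose knockouts 4 of 10, lay above the highest wild type of their dose. Nfkbia had differences of 0.84 ± 0.17 (adjusted p = 0.00831) at the high dose and 0.90 ± 0.17 (adjusted p = 0.000144) at the low dose, Tsc22d3 0.84 ± 0.20 at the high dose and 0.58 ± 0.20 at the low dose, and Sult1a1 0.72 ± 0.18 at the high dose and 0.49 ± 0.18 at the low dose. Tsc22d3 was in the class in 8 and Sult1a1 in 5 of 19 other ways of processing. Both left it without high-dose knockout replicate 1, while Fkbp5 and Nfkbia stayed in it. Without high-dose knockout replicate 1, the list had 2 rises at the high dose and 2 negative interactions, its median was 0.26 at the high dose and 0.50 at the low dose, and its median interaction changed sign to -0.03, against 0.11. A match to the palindrome the receptor binds (GNACA, any 3 bases, then TGTNC), read on both strands, was present in 3 of 15 promoters of the list (20%) and in 0.399% of those of all tested genes, but in none of the 20 dose-insensitive rises with a promoter sequence.

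Of 17 tested cholesterol synthesis genes 3 fell at the high dose, beside 0.238% of all tested genes. In this list 7 fell and 1 rose at the low dose, beside 11.4% and 10.6% of all tested genes. At the high dose 1 fell without high-dose knockout replicate 1, and 1 without the 5 dimmest arrays. Their median difference was -0.18 at the high dose and -0.24 at the low dose, and 1 member, Hsd17b7, was called for the interaction. Hmgcs1, the cytosolic synthase that begins the pathway, was chosen after its values were seen. It ran 12.10, 12.58 and 12.84 in high-dose knockouts against 12.72, 12.94 and 13.55 in high-dose wild types, and 11.74, 12.51 and 12.95 in low-dose knockouts against 12.58, 12.93 and 13.38 in low-dose wild types. Of the high-dose knockouts 8 of 10 lay below the lowest wild type. Hmgcs1 was dose-insensitive in 6 of 19 other ways of processing and left the class without high-dose knockout replicate 1. Its promoter is shown because it held 1 of the 2 matches to the sterol regulatory element TCACNCCAC, searched on both strands and in capitals here, among 12 dose-insensitive falls, beside 1.53% of tested genes. The sequence is from RefSeq on GRCm38.p6 at chr13:119690101-119690350 on the plus strand, with the match 137 bases before the start.
Hmgcs1: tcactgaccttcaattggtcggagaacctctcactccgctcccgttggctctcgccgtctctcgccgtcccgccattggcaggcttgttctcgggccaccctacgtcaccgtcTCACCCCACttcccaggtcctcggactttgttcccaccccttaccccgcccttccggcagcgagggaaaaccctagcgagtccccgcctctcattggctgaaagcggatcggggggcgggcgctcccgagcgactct

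Of 26 tested genes of the ATF4 and amino acid stress response 18 rose at the low dose and none fell, 2 rose at the high dose, and 4 were called for a negative interaction: Slc7a5, Atf5, Phgdh and Vldlr. Their median difference was 0.10 at the high dose and 0.41 at the low dose. Of all tested genes 10.6% rose at the low dose, 0.447% rose at the high dose and 2.1% had a negative interaction call. Slc7a5, the large neutral amino acid transporter, ran 7.99, 8.37 and 8.85 in high-dose knockouts against 7.51, 7.88 and 8.12 in high-dose wild types, and 8.80, 9.40 and 10.20 in low-dose knockouts against 6.71, 7.84 and 8.37 in low-dose wild types (interaction -1.03 ± 0.23, adjusted p = 0.00533). The low-dose groups were apart and the high-dose groups overlapped, with 7 of 10 knockouts above the highest wild type. Phgdh, which starts serine synthesis, had -0.19 ± 0.16 at the high dose and 0.67 ± 0.16 at the low dose (interaction -0.85 ± 0.22, adjusted p = 0.0223). Nupr1, a small stress-induced chromatin protein and an ATF4 target, was chosen after its values were seen. It ran 8.23, 9.78 and 11.13 in high-dose knockouts against 7.59, 8.11 and 9.02 in high-dose wild types, and 10.13, 10.61 and 11.05 in low-dose knockouts against 7.15, 7.93 and 8.78 in low-dose wild types. It was called at both doses, with 1.66 ± 0.25 (adjusted p = 8.11e-05) at the high dose and 2.59 ± 0.25 (adjusted p = 6e-11) at the low dose, and its interaction of -0.93 ± 0.35 had an adjusted p of 0.144, so it fell in no class.

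Vldlr, a lipoprotein and reelin receptor that ATF4 can induce, was chosen after its values were seen, and its promoter is shown because it held a match to the C/EBP-ATF response element core. Its differences were -0.17 ± 0.12 at the high dose and 0.45 ± 0.12 at the low dose (interaction -0.62 ± 0.17, adjusted p = 0.0323), and the interaction passed in 10 of 19 other ways of processing. The motif TGATGNAA, searched on both strands, began 200 bases before the start and is in capitals. The sequence is from RefSeq on GRCm38.p6 at chr19:27216770-27217019 on the plus strand.
Vldlr: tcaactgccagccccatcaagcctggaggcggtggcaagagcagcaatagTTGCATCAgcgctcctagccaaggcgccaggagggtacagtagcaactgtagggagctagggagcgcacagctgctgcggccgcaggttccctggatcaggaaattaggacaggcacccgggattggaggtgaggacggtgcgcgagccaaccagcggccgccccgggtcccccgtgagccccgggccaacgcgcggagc
The same letters were present in 7 of 21 promoters of the ATF4 list (33.3%), 4 of 11 of the cytosolic aminoacyl-tRNA synthetases (36.4%) and 8 of 119 fully reversed rises (6.72%), against 2.89% of tested genes. The synthetases, which charge tRNA with amino acids, had 9 of 17 members raised at the low dose and none at the high dose. Eprs, Wars and Dars were called for the interaction, at -0.76 ± 0.12 (adjusted p = 0.000146), -0.39 ± 0.10 (adjusted p = 0.0188) and -0.54 ± 0.16 (adjusted p = 0.0463), in that order. Without the 5 dimmest arrays or under median scaling 1 of the 17 was called.

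Of 20 tested genes of the TCA cycle, complex II and pyruvate dehydrogenase, 12 rose at the low dose, 1 at the high dose, and 6 were called for a negative interaction, with a median difference of 0.06 at the high dose and 0.35 at the low dose. Sdhb, the iron-sulfur subunit of complex II, had 0.28 ± 0.08 at the high dose and 0.76 ± 0.08 at the low dose (interaction -0.48 ± 0.11, adjusted p = 0.00692). Dlst, of the 2-oxoglutarate dehydrogenase complex, had -0.14 ± 0.08 at the high dose and 0.35 ± 0.08 at the low dose, and Idh3a, of isocitrate dehydrogenase, -0.01 ± 0.08 at the high dose and 0.45 ± 0.08 at the low dose. Idh2, the NADP-dependent mitochondrial isocitrate dehydrogenase, was chosen after its values were seen as the 1 member in the dose-insensitive class (0.56 ± 0.14 at the high dose and 0.85 ± 0.14 at the low dose), and it stayed in that class in 4 of 19 other ways of processing. Fatty acid oxidation, ketone and lipid droplet genes rose for 5 of 23 members at the high dose, against 16 at the low dose. Their interaction was called below 0 for 5 and above 0 for 1, beside 2.1% and 0.972% of all tested genes. Etfdh, which passes electrons from fatty acid oxidation to ubiquinone, had 0.08 ± 0.11 at the high dose and 0.86 ± 0.11 at the low dose, Acadl, a long-chain acyl-CoA dehydrogenase, 0.19 ± 0.14 at the high dose and 1.11 ± 0.15 at the low dose, and Acot1, an acyl-CoA thioesterase with close relatives, 0.10 ± 0.13 at the high dose and 0.98 ± 0.13 at the low dose. For all 3 the 10 low-dose knockouts lay above the low-dose wild types. The 5 rises of this list at the high dose were not called without high-dose knockout replicate 1 or without the 5 dimmest arrays.

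The interaction was called for 3 of 33 complex I subunits, 2 of 18 subunits of complexes III and IV and 1 of 14 ATP synthase subunits, all below 0. The lists as a whole did not share this direction. Called or not, 20 of 33 complex I interactions lay above 0 (median 0.03) and 12 of 18 of complexes III and IV (median 0.04). For ATP synthase 5 of 14 did (median -0.12). Ndufs3, a core complex I subunit, ran 9.17, 9.42 and 9.56 in high-dose knockouts against 9.00, 9.37 and 9.45 in high-dose wild types, and 9.71, 9.98 and 10.15 in low-dose knockouts against 9.11, 9.39 and 9.57 in low-dose wild types. The low-dose groups did not overlap (interaction -0.52 ± 0.09, adjusted p = 0.000604). Uqcrc2, a core subunit of complex III, had 0.09 ± 0.09 at the high dose and 0.70 ± 0.09 at the low dose (interaction -0.61 ± 0.12, adjusted p = 0.00224). Ndufa9, Ndufs8 and Cyc1 were called with interactions between -0.43 and -0.35, and Ndufs8 and Cyc1 each passed in 9 of 19 other ways of processing. The median difference of the complex I list was 0.09 at the high dose and 0.08 at the low dose, but 0.06 at the high dose and 0.22 at the low dose without the 5 dimmest arrays. The interaction was called for 0 of 71 mitochondrial ribosomal proteins, 0 of 64 cytosolic ribosomal proteins and 0 of 34 proteasome subunits, beside 3.08% of all tested genes, too low a share for these counts to set the lists apart. At the low dose 16 of the 71 and 12 of the 34 rose, beside 10.6% of all tested genes.

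Of 14 mitochondrial chaperones and proteases, 5 rose at the low dose and Hspa9, Hspd1 and Clpx were called for the interaction, all below 0. For this list and those that follow it, the shares of all tested genes were 10.6% for a low-dose rise and 2.1% for an interaction called below 0. Hspd1, the Hsp60 chaperonin, had -0.13 ± 0.09 at the high dose and 0.31 ± 0.09 at the low dose, and Clpx, the unfoldase of the ClpXP protease, 0.11 ± 0.11 at the high dose and 0.62 ± 0.11 at the low dose. Hspd1 passed in 9 and Clpx in 6 of 19 other ways of processing. Of 23 antioxidant enzymes 9 rose at the low dose and 3 were called for the interaction. Prdx3, the mitochondrial peroxiredoxin, had 0.10 ± 0.10 at the high dose and 0.73 ± 0.10 at the low dose (interaction -0.63 ± 0.13, adjusted p = 0.00392), Glrx, glutaredoxin, 0.18 ± 0.08 at the high dose and 0.68 ± 0.08 at the low dose, and Cat, catalase, 0.22 ± 0.13 at the high dose and 0.92 ± 0.13 at the low dose. Of 17 genes of iron handling and iron-sulfur assembly, Nfs1, the desulfurase that supplies sulfur to clusters, Tfrc, the transferrin receptor, and Ciapin1 were called below 0. Nfs1 had 0.11 ± 0.09 at the high dose and 0.65 ± 0.09 at the low dose (interaction -0.54 ± 0.13, adjusted p = 0.0102), with 10 of 10 low-dose knockouts above the low-dose wild types.

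Of 14 glycolysis genes, 3 were called below 0 for the interaction, beside 2.1% of all tested genes. Ldha, lactate dehydrogenase A, was among the 9 genes whose sign turned: it ran 9.04, 9.33 and 9.67 in high-dose knockouts against 9.32, 9.54 and 9.80 in high-dose wild types, and 9.82, 10.12 and 10.46 in low-dose knockouts against 9.27, 9.50 and 9.86 in low-dose wild types. Its difference was -0.22 ± 0.09 at the high dose (adjusted p = 0.286) and 0.62 ± 0.09 at the low dose (adjusted p = 4.49e-07), and the interaction was -0.84 ± 0.12 (adjusted p = 2.76e-05). The turn did not pass the adjusted threshold at the high dose, and 4 of 10 high-dose knockouts lay below the lowest wild type. Pfkp, the platelet-type phosphofructokinase, had 0.05 ± 0.13 at the high dose and 0.94 ± 0.13 at the low dose and Pgam1, phosphoglycerate mutase, 0.05 ± 0.09 at the high dose and 0.59 ± 0.09 at the low dose.

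Elf5, an Ets-family transcription factor, was also among the genes whose sign turned, with -0.31 ± 0.11 at the high dose (adjusted p = 0.207) and 0.31 ± 0.11 at the low dose (interaction -0.62 ± 0.15, adjusted p = 0.0155). Its high-dose difference did not pass the threshold, and 3 of 10 high-dose knockouts were above background, against 10 of 10 high-dose wild types. Of the 15 genes with an interaction but no low-dose call, Plin2, a lipid droplet coat protein, had 0.41 ± 0.10 at the high dose (adjusted p = 0.0421) and -0.17 ± 0.10 at the low dose, but 4 of 10, 1 of 10, 0 of 10 and 3 of 11 arrays were above background in the 4 dosed groups, so its levels are mostly bounds. Aqp4, the water channel of astrocyte endfeet, had -0.37 ± 0.12 at the high dose and 0.27 ± 0.12 at the low dose (interaction -0.64 ± 0.17, adjusted p = 0.028), and Gadd45g, a growth arrest gene, 0.62 ± 0.16 at the high dose and -0.24 ± 0.17 at the low dose (interaction 0.86 ± 0.23, adjusted p = 0.0278). Its relative Gadd45a was fully reversed, with 0.08 ± 0.16 at the high dose and 0.90 ± 0.16 at the low dose.

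Of 18 tested postsynaptic density genes 12 fell at the low dose, none was called at the high dose and none was called for the interaction, although 17 of 18 interactions lay above 0 with a median of 0.34, beside 0.016 over all tested genes. Of 29 presynaptic genes 11 fell and 1 rose at the low dose, none was called at the high dose and 1, Stx1a, was called for the interaction, with 27 of 29 above 0 and a median of 0.32. Of all tested genes 11.4% fell at the low dose and 0.685% were called at the high dose. The lack of high-dose calls therefore does not set the postsynaptic and presynaptic lists apart. Stx1a, the syntaxin of the vesicle fusion machinery, was chosen after its values were seen. It ran 9.77, 10.10 and 10.47 in high-dose knockouts against 10.23, 10.35 and 10.62 in high-dose wild types, and 9.36, 9.57 and 9.95 in low-dose knockouts against 9.89, 10.25 and 10.60 in low-dose wild types (interaction 0.45 ± 0.11, adjusted p = 0.0195). Camk2a, the kinase subunit abundant in the postsynaptic density, was chosen after its values were seen and had -0.20 ± 0.12 at the high dose and -0.60 ± 0.12 at the low dose (interaction 0.39 ± 0.17, adjusted p = 0.218). Of 15 immediate early genes, which neuronal activity induces, 6 fell and 1 rose at the low dose and none was called for the interaction. At the 3.08% called over all tested genes, this list and the postsynaptic list are too short for that to set them apart. Arc, chosen after its values were seen, had -1.09 ± 0.34 at the high dose and -1.93 ± 0.34 at the low dose (interaction 0.84 ± 0.47, adjusted p = 0.394).

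Summed linear levels of cell type markers are given beside these results. The presynaptic sum ran 17361, 24636 and 33043 in high-dose knockouts against 20259, 24323 and 32108 in high-dose wild types, and 12048, 15507 and 24445 in low-dose knockouts against 15179, 21353 and 30478 in low-dose wild types. The low-dose knockouts were lowest by median, and all groups overlapped. The myelin sum of 16 tested markers had a median of 34982 in knockouts and 32668 in wild types at the high dose, and of 28956 in knockouts and 31117 in wild types at the low dose, within ranges from 16788 to 42544. The astrocyte sum of 19 markers had a median of 29874 in knockouts and 30977 in wild types at the high dose, and of 34312 in knockouts and 32951 in wild types at the low dose, within ranges from 25146 to 43957. The microglial sum of 22 markers had a median of 5153 in knockouts and 6545 in wild types at the high dose, and of 6065 in knockouts and 7948 in wild types at the low dose, within ranges from 4603 to 10412. In untreated wild types the medians were 28536 for the presynaptic, 36758 for the myelin, 28872 for the astrocyte and 5763 for the microglial sum. The first and second lay above the medians of all dosed groups, and the astrocyte median below them. The microglial median lay below those of both dosed wild-type groups and of the low-dose knockouts. The part of these shifts in the gene results was not tested.

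By count, 1 astrocyte marker of 19 was called above 0 (S100b) and 2 below 0 (Aqp4 and Acsbg1) for the interaction, and none of 22 microglial markers. Of these 22, 9 fell at the low dose and 1, Fcrls, at the high dose, beside 11.4% and 0.238% of all tested genes. No marker of interneurons (0 of 12), of endothelial and mural cells (0 of 11) or of red blood cells (0 of 3) was called for the interaction. At the 3.08% called over all tested genes these lists are too short to stand apart. Of the interneuron markers 3 fell at the low dose and 1 rose at the high dose. Of the red blood cell markers, Hbb-b1 was above background on 1 array and Alas2 on 3, while Hba-a1 was above background on all 50. Other lists had 1 call each: Hsph1 of 7 cytosolic heat shock genes, Cux2 of 13 glutamatergic neuron markers, Kcnk2 of 34 potassium channels and Cacnb4 of 21 calcium handling genes, all above 0, and Igfbp2 of 11 meningeal and choroid plexus markers below 0. No gene of the lists for endoplasmic reticulum chaperones (13 tested), glutamate receptors (10), GABA receptors (9), oligodendrocyte precursors (6) or striatum (12) was called for the interaction. These lists are too short to stand apart as well. At the low dose 6 of the 13 chaperone genes fell, and 2 striatal markers rose and 1 fell. At the high dose 1 striatal marker fell.

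**Figure D5:**
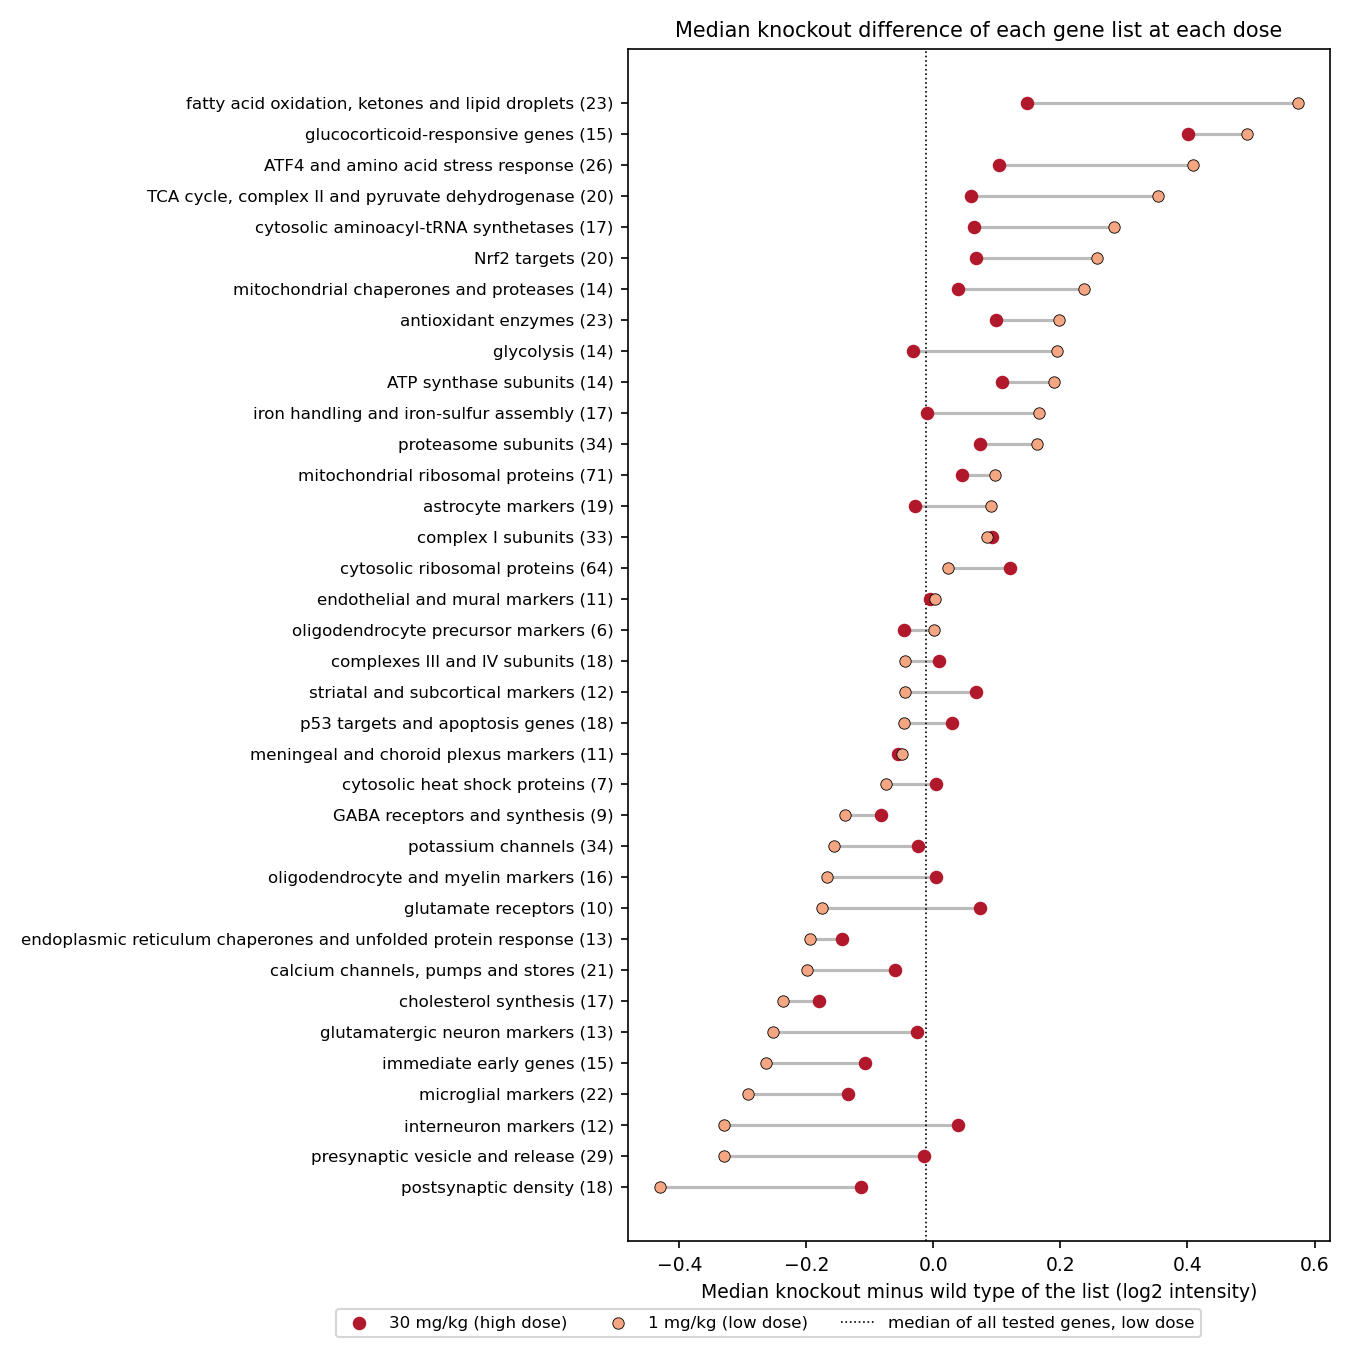
Median knockout minus wild-type difference of each gene list at 30 mg/kg (dark) and 1 mg/kg (light), in log2 intensity, with the number of tested members in brackets and a dotted line at the low-dose median of all tested genes (-0.012). At the low dose fatty acid oxidation lies farthest right at 0.57 and the postsynaptic density farthest left at -0.43, and glucocorticoid-responsive genes keep 0.40 at the high dose.

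The untreated wild types place the classes on the dose scale of wild types. For Hmox1 the level ran 4.38, 4.73 and 4.95 without compound, 4.40, 4.78 and 5.08 at 1 mg/kg and 4.21, 4.56 and 5.29 at 30 mg/kg. For Ephx1 it ran 6.31, 6.60 and 6.90, then 6.23, 6.62 and 7.22, then 6.45, 6.59 and 6.84. These wild-type ranges overlapped at every dose. Set against untreated wild types, high-dose knockouts were called at 134 probes and low-dose knockouts at 4322. Of the 197 fully reversed genes, 1 was called in the high-dose and 196 in the low-dose knockouts. Of the 60 partly reversed genes, 13 were called in the high-dose and 60 in the low-dose knockouts. These comparisons share the knockouts with those that chose the genes.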

How the data were processed

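Total RNA from frontal-cortex synaptosomes of 50 mice was hybridized to Illumina MouseRef-8 v2.0 arrays, 1 mouse per array. The deposited table held the linear intensity of 25697 probes, without detection p-values or control probes, per the file headers. The authors' processed log2 values were also deposited; their array medians lay between 6.015 and 6.031, each of the 50 columns matched its own array best, and their background and normalization steps are not given in the sources used here. They served as an alternative. The scanner software and the annotation build are not given in the sources used here. Per the labels' protocols, RNA went through 1 round of amplification and biotin labelling. Symbols were updated through RefSeq for 7033 probes, and 24584 probes (95.67%) had a symbol there.

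From these intensities, limma 3.58.1 in R 4.3.3 corrected background (normexp, offset 16), normalized by quantiles and took log2. Without detection calls, background was set on each array as the lower signal peak plus 1.645 SD, and the 13440 probes above it on at least 9 arrays were tested. All 50 arrays entered 1 fit with 5 groups and 7 chips as fixed terms (39 residual degrees of freedom, prior 7.38), and p-values were adjusted by Benjamini-Hochberg over all tested probes at 0.05. For counts of genes, 1 probe per gene was kept, that with the highest mean, which left 10078 genes. Of the interaction genes 107 had further tested probes. For 95 of the 107 every other probe had the same sign of interaction, and for 43 another probe was called too. Of the 7 chips 6 held all 4 dosed groups. The number of arrays limits the precision. Pairs of arrays correlated at 0.937 to 0.985, so none was counted as a repeat.

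Genes named are Sod2; the 7 largest low-dose rises and falls of the fully reversed, and 5 each of the partly reversed and dose-insensitive genes; 4 of those turned or without a low-dose call; and, for lists with at least 2 interaction calls, the 3 members with the smallest p. Some genes this rule selects are not reported here. Others are said to be chosen after their values were seen. The members, classes and 38 gene lists were chosen with earlier results of these data known. Alternatives changed the chip term, arrays, background, scaling, filter, weights and class rule. The method was tested on simulated data.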

Additional observations from a re-analysis of the deposited data

Results flagged for a closer look

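In high-dose knockouts, high-dose wild types and low-dose knockouts, 258 groups of named-gene levels were examined, and low-dose wild types (11 arrays) and untreated wild types were not. Of the 258 groups 16 held an array far from the others, and chance marks about 1 in 20 such groups. At the high dose 7 were in knockouts and 4 in wild types, and at the low dose 5 were in knockouts. High-dose knockout replicate 1 held 6 of them, at 8.42 for Angptl4, 5.92 for Arc, 6.9 for Gjb2, 8.09 for Nfkbia, 7.35 for Srf and 6.66 for Tlcd4 (log2 normalized intensity). The other high-dose knockout far from its group was replicate 2 for Phgdh at 7.15. In high-dose wild types replicate 13 stood apart for Fkbp5 at 5.12 and Ndufs8 at 9.41, and replicate 19 for Lypd1 at 7.83 and Nupr1 at 9.02. In low-dose knockouts replicate 25 stood apart for Glrx at 9.66 and H3c6 at 4.86, replicate 30 for Nfs1 at 8.83 and Uqcrc2 at 11.61, and replicate 31 for Sdhb at 9.04. The knockout difference itself differed between the doses, by the interaction test in limma, at 398 probes.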

How the results depend on the processing

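Of 66 named genes called for the interaction, 28 passed under every 1 of the 19 alternatives in which their probe was tested. Hmox1 was among the 28 with 18 alternatives, since the stricter filter on dim probes left it out. The number of arrays and the overlap of signal with background limit the weaker calls. The leaving out of high-dose knockout replicate 1 was chosen after seeing the data. The causes of the changes below were not tested, though leaving out arrays also leaves fewer samples. No paired analysis was possible because each replicate number occurs in 1 group.

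The low-dose count stayed within 1.5 times of 2809 under all alternatives (1904 to 3004). With only the 41 dosed arrays the interaction count was 258, the high-dose count 42 and the dose-insensitive count 21. Under median scaling these were 222, 48 and 25, with 130 fully and 26 partly reversed genes. Without a filter on dim probes the high-dose count was 47 and the dose-insensitive count 24, and without the 5 dimmest arrays (2 high-dose knockouts, 1 low-dose knockout and 2 low-dose wild types) 30 and 16. Array quality weights gave a high-dose count of 118 and 296 fully reversed genes. Classes by the remaining share alone gave 130 dose-insensitive genes. Without chips 3, 5, 6 and 7 the interaction count was 189, 185, 216 and 200 and the fully reversed count 100, 92, 124 and 110. Without chips 1, 3, 4 and 6 the high-dose count was 17, 49, 29 and 24 and the dose-insensitive count 10, 26, 15 and 15. Without chips 1, 3, 4, 5, 6 and 7 the partly reversed count was 35, 22, 27, 35, 38 and 31. Without high-dose knockout replicate 1 the high-dose count was 26 and the dose-insensitive count 14.

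Values that changed sign were near 0, and none passed the test. For the high-dose difference they were, without a chip term, Ift27 0.05255 and Ndufs8 0.01306, and with a random chip effect Ift27 0.0487 and Ndufs8 0.01166. With only the 41 dosed arrays they were Lgi4 -0.03547, Idh3a 0.02207, Acsbg1 0.001411 and Epas1 -0.002927. Under median scaling they were Mgst1 -0.02561, Lgi4 -0.07602, Ndufs3 -0.005073, Pfkp -0.03107, Pgam1 -0.03493, Etfdh -0.002034, Ciapin1 -0.02702 and Epas1 -0.04295. Under cyclic loess they were Ift27 0.01666 and Idh3a 0.005256, without the 5 dimmest arrays Lgi4 -0.001331, Idh3a 0.01624 and Epas1 -0.04544, and with the authors' processed values Ift27 0.01909, Idh3a 0.007543, Ndufs8 0.02318 and Acsbg1 0.003389. Without chip 1 they were Mgst1 -0.02769, Lgi4 -0.0626, Phgdh 0.005927 and Clpx -0.02804, and without chip 3 Idh3a 0.01092 and Epas1 -0.07791. Without chip 4 they were Mgst1 -0.003927, Ift27 0.04539, Eprs 0.02361 and Tfrc 0.01763, without chip 5 Ift27 0.01985, without chip 6 Ift27 0.02467, Idh3a 0.0324 and Ndufs8 0.0004395, and without chip 7 Lgi4 -0.02009. Without high-dose knockout replicate 1 they were Mgst1 -0.003353, Lgi4 -0.01415, Idh3a 0.001374, Ndufs8 0.002562, Pfkp -0.007348 and Epas1 -0.02379. For the interaction, Nfkbia changed sign under cyclic loess (0.005414), without the 5 dimmest arrays (0.01021) and without chip 5 (0.03565). Hmgcs1 did with the authors' processed values (0.02587) and without chip 6 (0.002441), and Fkbp5 without chip 1 (-0.07881), chip 6 (-0.05704) and high-dose knockout replicate 1 (-0.07865). Cyp4f16 did without chip 1 (-0.05969), Cirbp without chip 3 (0.04881) and Cyp51 without chip 4 (-0.08037).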
